A study of Homo sapiens with 13 samples.

Results

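FOXA1 peaks were examined in 6 genome windows that surround genes of epithelial identity: GRHL2, KLF5, ESRP1, RBM47, CDH1 and EPCAM. A peak belonged to a window if its centre lay inside it, whatever its strength. In hg19 the windows were chromosome 8 from 102.35 to 102.8 Mb for GRHL2, chromosome 13 from 73.4 to 74.3 Mb for KLF5 and chromosome 8 from 95.55 to 95.8 Mb for ESRP1. They were chromosome 4 from 40.35 to 40.75 Mb for RBM47, chromosome 16 from 68.65 to 68.95 Mb for CDH1 and chromosome 2 from 47.5 to 47.7 Mb for EPCAM. Together they spanned 2.5 Mb and held 137 of 68107 listed peaks, which were 110 of 54855 in Ishikawa and 27 of 13252 in Hec1A.

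The study mapped FOXA1 by ChIP-seq in 2 human endometrial adenocarcinoma cell lines. The Ishikawa list came from 6 pooled FOXA1 ChIP libraries (343739762 tags, where a tag is a mapped read end) called over 2 pooled input libraries, that is, chromatin sequenced without immunoprecipitation. The Hec1A list came from 3 pooled FOXA1 ChIP libraries (143055568 tags), and 2 Hec1A input libraries are labelled. All ChIP libraries used a rabbit FOXA1 antibody, and the labels give no treatment for either line. Each line has a single list, so no value below has a replicate error and no difference between the lines was tested. Intervals of signals and ratios are 95% exact intervals that cover tag counting alone, and tags that are copies of the same fragment are not independent.

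FOXA1 is a forkhead transcription factor that can bind closed chromatin and open it for other factors, among them steroid hormone receptors in hormone-responsive epithelia. The 6 genes act at different levels of the epithelial state. GRHL2 and KLF5 are transcription factors of epithelial cells, and GRHL2 is known to activate CDH1 and to oppose the mesenchymal repressor ZEB1, while KLF5 acts in dividing epithelial cells. ESRP1 directs epithelial patterns of splicing, and RBM47 is an RNA-binding protein that acts in splicing, RNA editing and transcript stability. CDH1 encodes E-cadherin, the adhesion protein of adherens junctions, and EPCAM encodes an epithelial adhesion protein. The windows also hold parts of the surrounding sequence, where the neighbouring coding genes in RefSeq order are CDH3 and TANGO6 beside CDH1, and VIRMA and DPY19L4 beside ESRP1. The neighbours are CHRNA9 and NSUN7 beside RBM47, PIBF1 and KLF12 beside KLF5, and ZNF706 and NCALD near GRHL2. No peak was assigned to a gene, since no hg19 annotation was used here.

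Sequence was at hand only for annotated starts in RefSeq's GRCh38.p14 table, which held 4 starts of RBM47 and 2 of KLF5. Their 250 upstream bases were searched on both strands for 3 forms of the forkhead motif, which cannot match at the same position. They were the form TGTTTAC, then TGTTTGC as a variant of its end, and lastly TATTTAC as a variant of its start. A single RBM47 start held a match, TGTTTGC, which begins 83 bases before the start on the strand of the gene. Of all 35116 promoters in the table, 8.27% held a match in the same stretch. The sequence is shown because it is the match found among these starts. It is given on the minus strand of chromosome 4, with the motif in capitals, and whether it lies under a peak was not examined, because the peaks are in another build.
RBM47 upstream sequence: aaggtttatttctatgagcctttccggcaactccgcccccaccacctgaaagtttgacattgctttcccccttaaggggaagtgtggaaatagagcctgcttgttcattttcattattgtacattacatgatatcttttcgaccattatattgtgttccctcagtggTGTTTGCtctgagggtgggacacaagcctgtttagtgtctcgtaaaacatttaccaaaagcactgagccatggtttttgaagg

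**Figure D1:**
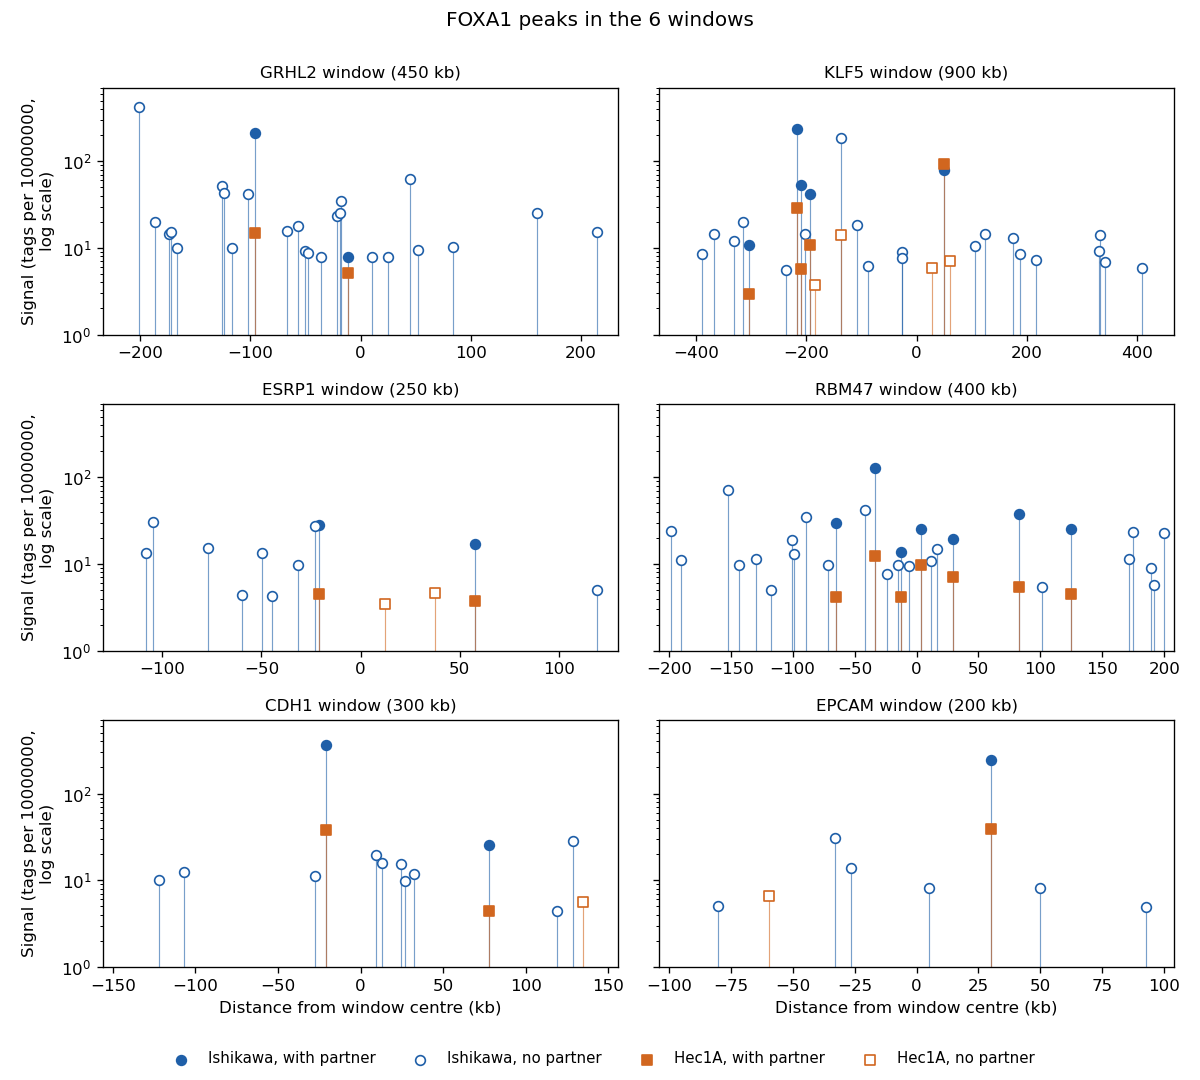
Every FOXA1 peak in the 6 windows, by distance from the window centre in kb (x axis) and signal in tags per 10000000 on a log scale (y axis). Circles are Ishikawa peaks and squares Hec1A peaks, and filled symbols overlap a peak of the other line. The GRHL2 window has its tallest Ishikawa peak (424.7) without a Hec1A partner, and in the KLF5 window a single Hec1A peak (93.7) stands above its Ishikawa partner (78.8).

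Ishikawa peaks were dense in the RBM47 and GRHL2 windows. The RBM47 window held 29 Ishikawa peaks in 400 kb, where adjoining tiles of the same width along the autosomes and chromosome X had a median of 7, and 0.0264% of them (2 of 7569) held at least as many. The GRHL2 window held 26 in 450 kb against a median of 8, a number that 0.312% of tiles reached. CDH1 had 12 peaks in 300 kb (7.06% of tiles reached this), ESRP1 had 11 in 250 kb (5.36%), EPCAM had 7 in 200 kb (15.8%), and KLF5 had 25 in 900 kb (18.1%). The last 2 numbers were thus not unusual for windows of their width. Tiles include stretches without genes or mappable sequence, and the windows were placed around genes with earlier results known, so these shares describe the windows and are no test.

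Hec1A ranked the windows differently. RBM47 again had the smallest share of equal tiles, with 7 Hec1A peaks that 2.96% of tiles reached. ESRP1 had 4 peaks (6.75% of tiles), KLF5 had 9 (11.1%), CDH1 had 3 (18.3%) and EPCAM had 2 (22.2%). GRHL2 had only 2 Hec1A peaks, a number reached by 47.6% of tiles of its width. The GRHL2 window, densely bound in Ishikawa, was therefore ordinary in the Hec1A list.

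**Figure D2:**
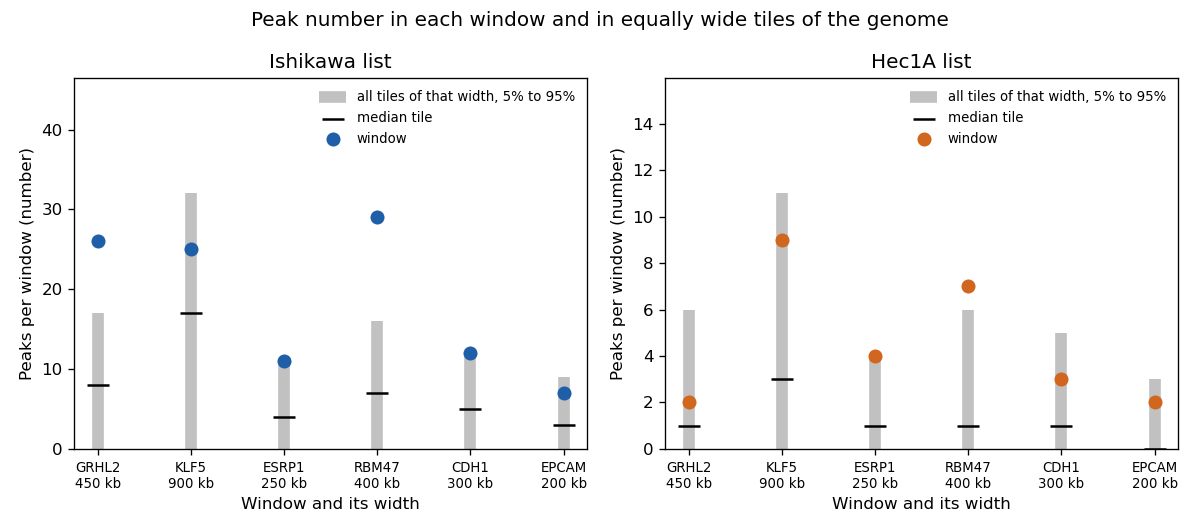
Number of peaks (y axis) in each window (x axis, with its width) for the Ishikawa list on the left and the Hec1A list on the right. Grey bars span 5% to 95% of equally wide tiles, black dashes are the median tile and coloured points the window. RBM47 (29) and GRHL2 (26) lie above the grey bar in Ishikawa, and in Hec1A only RBM47 (7) does.

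Peaks in the windows were also stronger than their lists. Signal is the number of tags in a peak per 10000000 tags of its pool. The median Ishikawa signal was 13.7 in the windows and 9.69 over the list, and 41 of 110 window peaks (37.3%) were among the 25.0% of highest score, the tag number by which the authors' peak caller ranks peaks. In Hec1A the median signals were 5.66 and 4.96, and 10 of 27 window peaks (37.0%) were among the 25.0% of highest score. The local fold compares a peak's tag density with that of the 10000 bp around it. Its median was 8.05 in the windows and 6.93 over the Ishikawa list, and 6.98 and 5.71 in Hec1A. The interval of the Ishikawa window median, 6.75 to 9.2, included the list value, and that in Hec1A, 5.72 to 14.1, began just above it. Peaks of a single pooled list are not replicates, so these intervals are no test of a difference from the list. Median signal was above the list value in every window but EPCAM (8.2) in Ishikawa and ESRP1 (4.12) in Hec1A. Median local fold was above it in all but GRHL2 (6.29) in Ishikawa, and in all but ESRP1 (5.45) and KLF5 (5.32) in Hec1A. A local fold of at least 8 was reached by 56 of 110 Ishikawa window peaks, against 40.1% of the list, and by 12 of 27 in Hec1A, against 26.0%. Local background, computed as signal divided by local fold, was also higher in the Ishikawa windows, with a median of 1.71 tags per 10000000 against 1.34 over the list. It was 0.854 against 0.81 in Hec1A. Input tags per Ishikawa peak averaged 6.15 in the windows and 5.36 over the list. The part of background and input in the peak numbers was not tested.

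Of the 27 Hec1A peaks, 19 overlapped an Ishikawa peak by at least 1 bp, which is 70.4% (95% Clopper-Pearson interval 49.8% to 86.2%, counting of peaks alone) against 52.9% of the whole Hec1A list. Those 19 were 17.3% of the Ishikawa peaks in the windows (10.7% to 25.7%) against 12.8% of the whole Ishikawa list. The interval of the Hec1A share included the value of the whole list, and so did that of the Ishikawa share. All 7 Hec1A peaks of RBM47 had a partner, and without that window the Hec1A share was 60.0% (12 of 20). By window, partners were found for 2 of 2 Hec1A peaks at GRHL2, 5 of 9 at KLF5, 2 of 4 at ESRP1, 2 of 3 at CDH1 and 1 of 2 at EPCAM.

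The centres of overlapping peaks were close. The median offset of the 19 pairs was 7 bp, with 11 within 10 bp, as were 42.2% of all 7012 pairs, and 17 within 50 bp, as were 82.2%. Signal ran in parallel, with a Spearman rho of 0.81 over the 19 pairs (Pearson r = 0.79 on log2 signal) and 0.47 over all pairs (r = 0.5). These describe sites that share 2 pools and are no test. Ishikawa signal was the higher of the pair at 18 sites and the lower at 1, and it was the lower in 6.43% of all pairs. Its ratio to Hec1A had a median of 5.77 and a range of 0.841 to 14.1, where all pairs had a median of 3.53, and 14 of the 19 ratios were above that median. The tag pools differ in overall enrichment, since peaks held 9.66% of Ishikawa and 1.12% of Hec1A tags, so a ratio is read here only against that of other pairs.

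**Figure D3:**
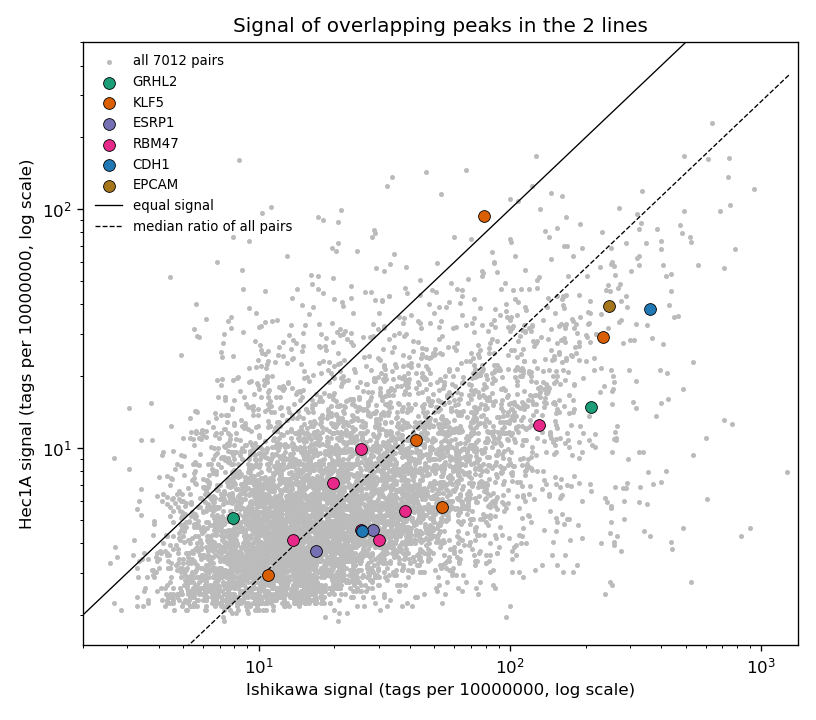
Ishikawa signal (x axis) and Hec1A signal (y axis) of overlapping peaks, both in tags per 10000000 on log scales. Grey points are all 7012 pairs, coloured points the 19 pairs in the windows, the solid line marks equal signal and the dashed line the median ratio of all pairs (3.53). A KLF5 pair lies above the solid line (ratio 0.841) and a GRHL2 pair (ratio 14.1) far under the dashed line.

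GRHL2 showed the widest contrast between the lines. Its strongest Ishikawa peak, at chromosome 8, 102373156 to 102373508, had a signal of 424.7 (418 to 432), a local fold of 98.0 and a fold over input of 329, and ranked 17 by score in the whole list. The nearest Hec1A peak lay 72.9 kb away. A Hec1A site had to reach a score of 32 tags and pass the local and clonality filters to be listed, so the lack of a listed peak does not show the lack of binding.

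A further strong GRHL2 site was listed in both lines. At chromosome 8, 102479348 to 102479700, the Ishikawa signal was 209.3 (204 to 214) with a fold over input of 406. The Hec1A peak 3 bp away had a signal of 14.8 (12.9 to 17.0). The ratio was 14.1 (12.3 to 16.3), and 95.9% of all pairs had a lower ratio. By local fold the site was 83.8 in Ishikawa and 14.7 in Hec1A, a ratio above that of 94.5% of pairs. Both scales thus place this site among those with the largest excess in Ishikawa.

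The remaining GRHL2 peaks were mostly Ishikawa sites of moderate strength. The other Hec1A peak, at 102563824 to 102564078, had a signal of 5.1, a clonal fold of 1.88, and overlapped the edge of an Ishikawa peak of signal 7.88 with centres 261 bp apart. A clonal fold divides the distinct tag positions expected in a peak by those observed, so values above 1 mark tags piled on few positions. Neighbouring Ishikawa peaks within 10 kb formed 4 groups of at least 3 in this window. The strongest group had 3 peaks between 102449267 and 102458836 with signals up to 51.7 and no Hec1A partner, and another had 4 peaks between 102553644 and 102563866 with signals up to 34.3. The other groups reached 15.2 and 17.7. Ishikawa local background had a median of 2.15 here, the highest of the 6 windows, and its part in these counts was not tested.

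KLF5, the widest window, had the most Hec1A peaks (9 in 900 kb, a number that 11.1% of equally wide tiles reached). It also held a site stronger in Hec1A. At chromosome 13, 73899824 to 73900078, the Hec1A signal was 93.7 (88.7 to 98.8), rank 84 of the list by score, and that of the Ishikawa partner was 78.8 (75.9 to 81.8), rank 1497. The ratio of Ishikawa to Hec1A was 0.841 (0.788 to 0.899), lower than at all but 340 of the 7012 pairs (4.85%), and a ratio under 1 was seen in 6.43% of all pairs.

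Local background moved with that site. In Hec1A it was 2.02 at the site, and 1.79% of the list was higher. It was also raised at the 2 nearest Hec1A peaks, 1.42 at 73878352 to 73878606 and 1.52 at 73911111 to 73911365, against 0.81 over the list. These 2 peaks had no partner, with signals of 5.8 and 6.99 and clonal folds of 1.91 and 1.34. In Ishikawa the background at the site was 1.56 and the input 13 tags, against a mean of 5.36 over the list. By local fold the site was 46.5-fold in Hec1A and 50.5-fold in Ishikawa, a ratio of 1.09, and 21.2% of pairs had a lower one. On this scale the site thus stood apart less. The part of background in the signal was not tested.

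**Figure D4:**
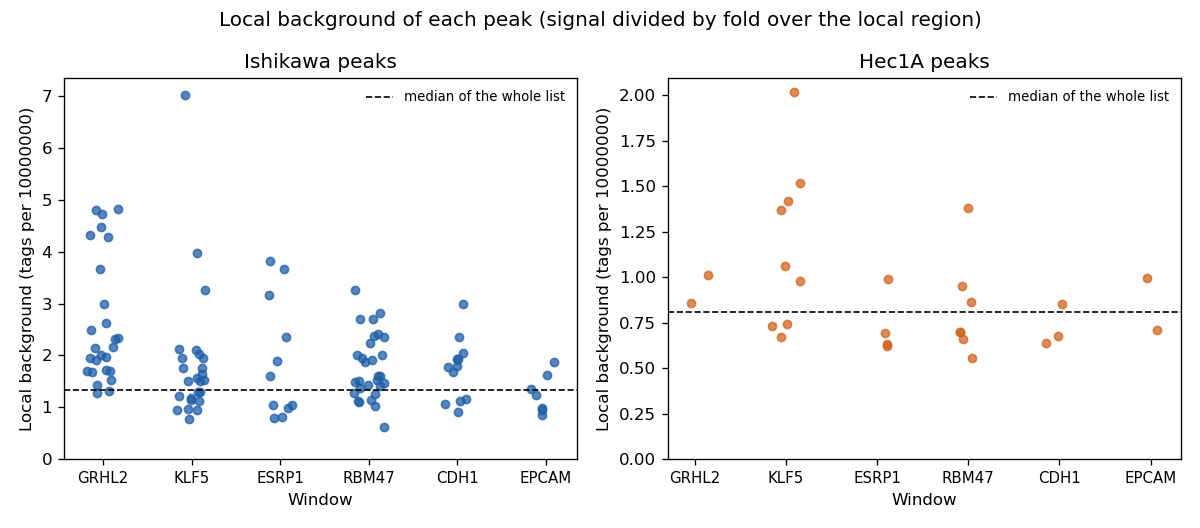
Local background of every peak in tags per 10000000 (y axis), computed as signal divided by local fold, by window (x axis) for Ishikawa on the left and Hec1A on the right; points are spread sideways for clarity. The dashed line is the median of the whole list (1.34 and 0.81). The highest Hec1A value is that of the KLF5 site at 2.02.

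The other strong KLF5 sites lay close together. Between 73632738 and 73656954, 4 Ishikawa peaks formed a group, and 3 of them had a Hec1A partner within 2 bp of their centre. The strongest, at 73632738 to 73633090, had a signal of 233.5 (228 to 239) in Ishikawa and 29.1 (26.4 to 32.0) in Hec1A, a ratio of 8.02. The next, at 73640149 to 73640501, had 53.6 and 5.66, a ratio of 9.47, and that at 73656602 to 73656954 had 42.4 and 10.8, a ratio of 3.93. A Hec1A peak of signal 3.7 at 73664763 to 73665017 had no partner. Further into the window, an Ishikawa peak of signal 184.6 at 73713325 to 73713677 and a Hec1A peak of 14.1 at 73712849 to 73713103 did not overlap, with centres 525 bp apart. These were neighbouring strong sites that the overlap rule counts as unshared. A last pair at 73545109 to 73545461 was weak, with signals of 10.9 and 2.94. Beyond the sites named, another group of 3 Ishikawa peaks, between 74181958 and 74193051, had signals up to 13.9 and no partner.

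RBM47 combined the densest Ishikawa binding with complete sharing of its 7 Hec1A peaks, which was also seen for the 2 at GRHL2. The strongest site in both lines was at chromosome 4, 40516505 to 40516857, where the centres coincided. Its signal was 130.0 (126 to 134) in Ishikawa and 12.5 (10.7 to 14.5) in Hec1A, a ratio of 10.4 that was higher than in 92.3% of pairs. It lay in a group of 9 Ishikawa peaks spread over 59.0 kb, from 40508077 to 40567055, the largest group in the windows, of which 3 had a Hec1A partner. The other 2 shared sites of that group were at 40536905 to 40537257, with signals of 13.7 and 4.12, and at 40553118 to 40553470, with 25.6 and 9.86.

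The other RBM47 sites were spread along the window. Shared peaks at 40484411 to 40484763, 40632652 to 40633004 and 40674876 to 40675228 had Ishikawa signals of 30.0, 38.1 and 25.4 and Hec1A signals of 4.12, 5.45 and 4.54. At 40579206 to 40579558 the signals were 19.7 and 7.13, with centres 180 bp apart. Across the 7 RBM47 pairs the ratio ranged from 2.6 (2.17 to 3.13) to 10.4 (8.95 to 12.1), a spread with no replicates to set it against. The strongest Ishikawa peak without a partner, at 40397882 to 40398234, had a signal of 71.4, and the nearest Hec1A peak was 86.5 kb away. Groups of 3 Ishikawa peaks without a partner lay from 40449395 to 40461073, with signals up to 34.8, and from 40739005 to 40749932, with signals up to 22.9.

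The highest ESRP1 signals, 30.7 in Ishikawa and 4.61 in Hec1A, were under the highest of each other window, while the median Ishikawa signal of 13.5 at ESRP1 was above those of KLF5 (11.9) and EPCAM (8.2). The highest-scoring Ishikawa peak of the ESRP1 window, at chromosome 8, 95569880 to 95570232, had a signal of 30.7 (rank 5622 by score) and no partner. The highest-scoring Hec1A peak, at 95653644 to 95653898, had 4.54 (3.51 to 5.79) and coincided within 2 bp with an Ishikawa peak of 28.6, a ratio of 6.3. That Ishikawa peak ended a group of 3 between 95643007 and 95653949, whose other members had signals of 27.4 and 9.77. The remaining pair, at 95732469 to 95732821, had signals of 16.9 and 3.7, a ratio of 4.57. Hec1A peaks without a partner, at 95687086 to 95687340 and 95712516 to 95712770, had signals of 3.43 and 4.61 and clonal folds of 1.57 and 1.95. No ESRP1 peak of either line reached the 1000 highest scores.

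CDH1 was dominated by a single shared site. At chromosome 16, 68778679 to 68779031, the Ishikawa signal was 359.6, with a local fold of 120 and rank 111 by score. The Hec1A signal 1 bp away was 38.2 (35.0 to 41.5), with a local fold of 44.8 and rank 304. The ratio was 9.41 (8.65 to 10.3), higher than in 90.5% of pairs. The site had 14 input tags in Ishikawa and was 99.4-fold over input. The other pair, at 68877328 to 68877680, had signals of 25.8 and 4.47, a ratio of 5.77. Signals of the 10 Ishikawa peaks without a partner ranged from 4.45 to 28.5, among them a group of 3 from 68824118 to 68832801 with signals up to 15.4. The remaining Hec1A peak, at 68934510 to 68934764, had a signal of 5.66, a clonal fold of 1.86 and an Ishikawa peak of 28.5 at a distance of 6.25 kb.

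EPCAM was likewise dominated by a shared site. At chromosome 2, 47629870 to 47630222, the signals were 246.8 in Ishikawa and 39.5 (36.3 to 42.9) in Hec1A. The local folds were 131 and 55.5, the highest in the 6 windows for each line, and the ranks by score were 214 and 180. The ratio was 6.25 (5.74 to 6.82). This pair held 77.8% of the Ishikawa signal and 85.7% of the Hec1A signal of EPCAM peaks. The 6 other Ishikawa peaks had signals of 4.89 to 30.4. The other Hec1A peak, at 47540303 to 47540557, had a signal of 6.57 and a clonal fold of 0.64, and the nearest Ishikawa peak was 20.7 kb away.

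Strong peaks made up a larger share of the windows than of the lists, which was not tested. Of the 110 Ishikawa peaks 7 were among the 1000 of highest score, which hold 1.82% of that list, and of the 27 Hec1A peaks 5 were, against 7.58%. In Ishikawa they were 2 each at GRHL2 and KLF5 and 1 each at RBM47, CDH1 and EPCAM. In Hec1A they were 3 at KLF5 and 1 each at CDH1 and EPCAM. Of the 7 Ishikawa peaks 5 had a partner, and 47.4% of the 1000 highest-scoring Ishikawa peaks had one. The 2 exceptions were the GRHL2 peak of signal 424.7 and the KLF5 peak of signal 184.6 with a Hec1A neighbour at 525 bp. Of the 5 Hec1A peaks 4 had a partner, close to the 77.8% of the highest-scoring Hec1A peaks (781 of 1004, with ties). A signal of at least 40 was found for 16 of 110 Ishikawa window peaks, against 7.36% of the list. Of the 16, 8 had a partner, and so did 1641 of the 4039 such peaks in the whole list.

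Hec1A peaks without a partner differed in clonality from those with one. A clonal fold above 1 was found for 5 of the 8 peaks without a partner and 3 of the 19 with one. Over the whole list 28.8% of Hec1A peaks had such a value, 46.2% of those without a partner and 13.4% of those with one, so the windows followed the list. The 3 unpartnered peaks without such a value were at EPCAM (6.57) and KLF5 (3.7 and 14.1).

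The window edges are round positions, and some of them had listed peaks close by. An Ishikawa peak lay within 20 kb inside 7 of the 12 edges and within 20 kb outside 3 of them. In Hec1A each number was 1. The Ishikawa peaks nearest to an edge of the RBM47 window lay 0.244 kb inside it, with a signal of 22.9, and 6.39 kb outside it, with 18.4. The strongest of the Ishikawa peaks next outside an edge had a signal of 67.2, 21.6 kb beyond the RBM47 window. With 100 kb added on both sides of each window, the numbers were 135 Ishikawa and 35 Hec1A peaks.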

How the data were processed

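The submitters' processing notes name the build hg19 and the tools HOMER 4.7.2, SAMtools 1.3.1 and Bowtie 1.1.2. Peaks were called by the authors with findPeaks of HOMER (factor mode, pooled ChIP tags), per the file headers, at a false discovery rate of 0.001 (88 tags in Ishikawa, 32 in Hec1A), a fold of 4 over the surrounding 10000 bp and a clonal fold of at most 2. Ishikawa peaks also had to exceed the pooled input by a fold of 4, and the Hec1A header records no input filter, although that list's own name mentions inputs. In it, the local filter (41790) and the clonality filter (25004) make up the whole difference between 80046 putative and 13252 final peaks. Peak width was 353 bp in Ishikawa and 254 bp in Hec1A. Library kits (TruSeq and ThruPLEX) were mixed in each pool.

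The deposited signal is tags per 10000000. The deposited input signal of an Ishikawa peak is its number of tags in the pooled inputs, not scaled per 10000000. The deposited score is the number of tags used for ranking. The deposited folds (local, input, clonal) are ratios. The deposited fraction on tag placement was not compared. All are the authors' own values per peak.

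Peaks were assigned by their centre and paired by an overlap of at least 1 bp (Python 3.11.15, pandas 2.3.3, scipy 1.17.1). Tags were recovered as signal times pool size and rounded, for exact Poisson intervals of signals and exact conditional binomial intervals of ratios. Tiles began at the start of each chromosome. Pairing and assignment were tested on simulated lists. The members and lists were chosen with earlier results of these data known. Named peaks are the strongest of each line and window by score, all Hec1A peaks, all pairs and groups of at least 3 Ishikawa peaks with neighbouring centres within 10 kb. A few further peaks were named after their values were seen, namely strong Ishikawa peaks without a partner at RBM47 and KLF5 and peaks next to window edges. The counts at a signal of at least 40 and among the 1000 highest scores, the local background and the promoter search were also chosen after the data were seen. Planned counts over other epithelial and mesenchymal genes and motifs in peaks need an hg19 annotation and genome, which were not used here.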

Additional observations from a re-analysis of the deposited data

How the results depend on the processing

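With 1 pooled list per line, no library could be left out. The pools differed in depth, enrichment and filters, and their parts in the listing of weak Hec1A sites cannot be told apart. No paired analysis was possible because each list comes from pooled libraries. Of 60 alternatives, those leaving out a window being chosen after the data were seen, 55 stayed within 1.5 times for counts or within the main interval for shares and medians. The 5 that moved were all planned settings. An alternative that left out a window kept most of the same peaks and could hardly move. The Ishikawa count fell from 110 to 56 where the local fold was at least 8, to 58 where the fold over input was, and to 41 with equal peak numbers, and the Hec1A count from 27 to 12 at a local fold of at least 8. These counts follow from the thresholds. With equal peak numbers 39.0% of Ishikawa window peaks had a partner (16 of 41) in place of 17.3%, since its weaker peaks were dropped. The Hec1A share with a partner ranged from 59.3% (equal peak numbers) to 83.3% (local fold of at least 8). No share of the whole list was set beside these at the same settings, so they do not show whether the windows differ from it. Counts over other gene lists and motifs in peaks were not run.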
